A study of Mus musculus with 12 samples.

Results

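Primordial germ cell genes were followed in gastruloids, aggregates of mouse embryonic stem (ES) cells that break symmetry and elongate in culture. The 7 genes Prdm1, Tfap2c, Dppa3, Nanos3, Dnd1, Kit and Dazl were chosen by name, by adding up the estimated counts of every RefSeq transcript of a gene symbol, and they are 7 of 38911 genes in the deposited counts. Primordial germ cells are the embryonic founders of sperm and eggs. In the mouse, BMP and WNT signals set them apart from the posterior epiblast at about the time the mesoderm forms. Prdm1 (Blimp1) and Tfap2c, with Prdm14, are the transcription factors that establish their fate by holding down somatic genes and keeping pluripotency genes on. Dppa3, Nanos3, Dnd1 and Kit then mark, protect or sustain the cells, and Dazl comes on later, around the time they reach the gonad.

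All libraries held polyA RNA of day 4 gastruloids made from E14TG2a, a mouse ES cell line kept in 2iLIF. Per the paper's methods, every gastruloid was first given a WNT agonist to induce mesoderm, whatever its group. The treatment compared here lasted from day 3 to day 4. The 4 groups were No Glucose (0 mM), 1X Glucose (21.25 mM), 3X Glucose (63.75 mM) and 2-DG, a glucose analog (2-deoxy-D-glucose) given at 5 mM in medium that also held 1X glucose, and compared here with 1X glucose alone. Each group had 3 libraries, 1 each from ES cells of passage 13, 15 and 16. A passage may also stand for a culture round or batch, which the labels do not name, so these cannot be told apart. The gastruloids of a plate were pooled for a library, and all came from the same cell line. The p-values of the main fit, which has no passage term, thus measure the spread between passages of that line. Those of fits with a passage term measure the spread left once group and passage are accounted for. No cells were sorted. In such bulk RNA, fewer cells of a type and less RNA per cell cannot be told apart.

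The libraries held 31902471 to 45956080 estimated counts each, and 16966 genes passed the filter on low counts. Levels are given as CPM (counts divided by the library's total after TMM normalization, which corrects the totals for differences in RNA composition, and scaled to a common total), so that 3 counts, taken as the detection floor, correspond to 0.0648 to 0.0947 CPM. Passage was a strong source of variation, since 7840 genes (46.2% of those tested) differed between passages. For this reason the value of every library is given with its passage, and for the members a fit with the passage as a block is given where it changed a call. For the lists of other genes its counts are given in 2-DG against 1X glucose. T, the mesoderm factor Brachyury that marks elongating gastruloids, was abundant at 225 ± 84.6 CPM in 1X glucose and 75.9 ± 17.5 CPM in 2-DG (SD, n = 3).

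Members of the germ cell set differed widely in level, and Dppa3 and Dazl were at or near the floor. Per kilobase of transcript, Kit had the highest median over the 12 libraries, 4.98 CPM per kb, and ranged from 3.40 to 8.19. Dnd1 followed with a median of 1.54 CPM per kb, and Tfap2c with 0.544. The medians of Nanos3 and Prdm1 were 0.310 and 0.240 CPM per kb, with ranges of 0 to 0.464 and 0.0655 to 0.505. Dazl had a median of 0.0279 CPM per kb and Dppa3 a median of 0. The length was that of a chosen curated transcript of each gene, applied to the counts of all its transcripts. That transcript held only 1.16% of the Prdm1 counts and 24.3% of the Dazl counts. The values per kilobase of Prdm1 and Dazl are thus approximate. The ranges of Tfap2c, Nanos3 and Prdm1 overlapped, while every value of Kit was above every value of the other 6 genes. The filter kept 5 of the 7 genes and left Dppa3 and Dazl out of the main fit. In a fit without the filter all 7 were tested, and in 2-DG against 1X glucose only Tfap2c passed an adjusted p of 0.05.

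**Figure D1:**
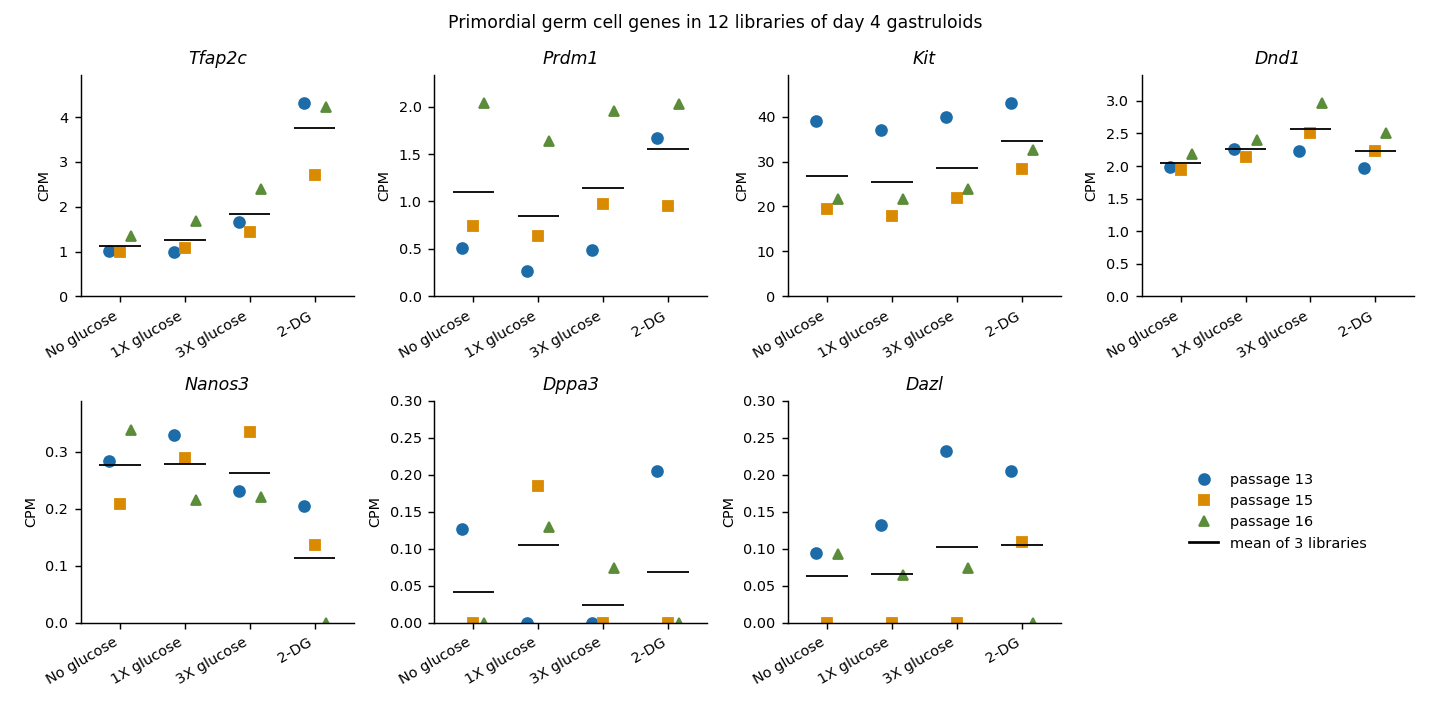
Level of each primordial germ cell gene (CPM, y axis from 0, a different scale in each panel) in the 4 groups, with 1 point per library, its passage given by shape and colour, and a line at the mean of the 3 libraries. Tfap2c in 2-DG lay between 2.70 and 4.30 CPM, above all 9 other libraries, while Kit and Prdm1 were ordered by passage in most groups.

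The counts are given per transcript, and for Kit they divide between forms that code for different receptors. Kit, on chromosome 5 (chr5:75574987-75656722, plus strand, GRCm38), encodes the receptor tyrosine kinase for stem cell factor. Its RefSeq transcripts NM_001122733.1 and NM_021099.3 differ by the use of an alternative splice donor at the end of exon 9, chr5:75639147-75639158, which adds 12 coding bases, or 4 codons, just outside the membrane. Their first exons also start at different positions. The sequences across the exon 9 to exon 10 junction, read 5′ to 3′ from the GRCm38 transcripts, are shown because they are the coding difference between both transcripts, and the capitals mark the 12 added bases.
NM_001122733.1: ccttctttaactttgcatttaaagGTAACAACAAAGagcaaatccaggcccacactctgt
NM_021099.3: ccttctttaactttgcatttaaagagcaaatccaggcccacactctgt

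StringTie, which made the counts, divides the reads of a gene between its transcripts, and a stretch this short gives it few reads to decide by. NM_021099.3, without the added bases, held 53.3% of the Kit counts of all libraries and NM_001122733.1 held 41.3%. The share of NM_021099.3 was 41.3%, 43.3% and 48.4% in no glucose (passages 13, 15 and 16), 82.6%, 65.5% and 43.5% in 1X glucose, and 51.1%, 76.3% and 66.4% in 2-DG. In 3X glucose it was 36.5%, 5.69% and 51.5%. The share was thus higher in each 2-DG library than in any no glucose library, while 1X glucose spanned both. In 3X glucose of passage 15, a predicted transcript, XM_017320687.2, took 72.1% of the counts, whereas it held at most 0.425% in every other library. The shares are a description and were not tested, and the Kit total of that library, 721 counts, stood among those of its passage.

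**Figure D2:**
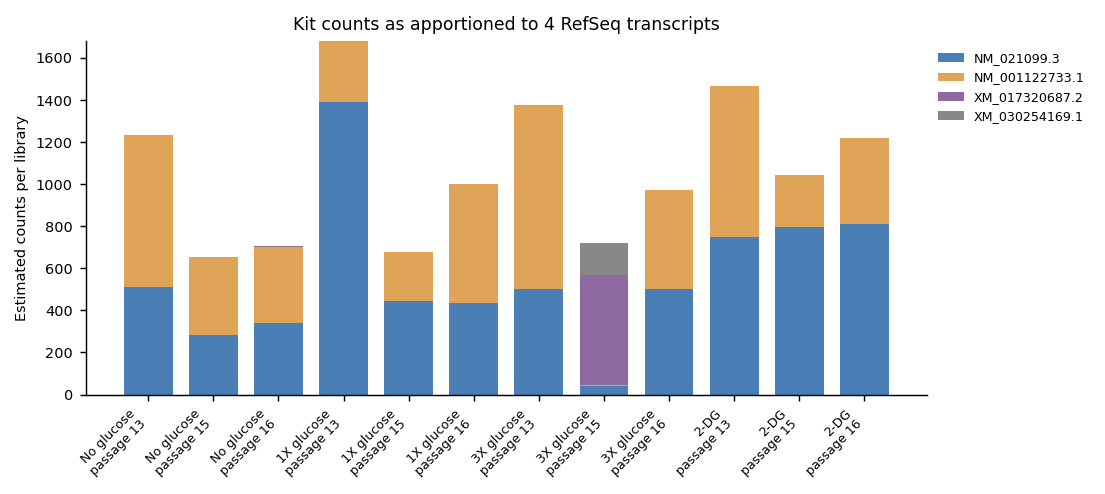
Estimated Kit counts per library (y axis from 0), stacked by the RefSeq transcript to which they were apportioned, for the 4 groups and 3 passages. NM_021099.3 and NM_001122733.1 made up nearly all counts in 11 libraries, and the predicted XM_017320687.2 held 520 of 721 counts in 3X glucose of passage 15.

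The first comparison asked how 2-DG, which blocks glycolysis and also enters glycosyl chains in place of mannose, changed these genes. Tfap2c rose about 3-fold in 2-DG and was the only one of the 5 tested members past the threshold, beside 17.6% of all tested genes and 9.12% called higher. No member fell past the threshold. Prdm1 and Kit were higher in 2-DG in each of the 3 passages, and passed only when the passage was a block. With the block 3 of the 5 tested members were called, all higher, beside 41.3% of all genes called and 21.1% called higher.

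Tfap2c (chr2:172545678-172558622, plus strand, GRCm38) encodes AP-2 gamma, a transcription factor of early germ cells that surface ectoderm and trophoblast also use. Its level in 2-DG was 4.30, 2.70 and 4.24 CPM in passages 13, 15 and 16 (147, 99 and 159 counts). In 1X glucose it was 0.988, 1.08 and 1.69 CPM (45, 41 and 78 counts). All 2-DG libraries were above all 1X glucose libraries, by 4.36, 2.50 and 2.51 times within the 3 passages. The fitted log2 fold change was 1.58 (SE 0.28, 95% interval 0.95 to 2.20), a fold of 2.98 (1.94 to 4.59), and the gene passed edgeR's quasi-likelihood test (adjusted p = 0.00445). It was 1.59 with the passage as a block. The call held when any 1 of the 6 libraries was left out, with values of 1.43 to 1.85. It was lost when the most abundant transcript stood in for the gene, where the log2 fold change was 1.95 but the adjusted p 0.657 in edgeR's test. That transcript, NM_009335.2, held 71.8% of all Tfap2c counts. It was given 0 counts in 1X glucose of passage 13 and in 3X glucose of passages 13 and 15. The cause of the lost call was not tested.

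Prdm1 (chr10:44437174-44528558, minus strand, GRCm38), the SET domain repressor that initiates the germ cell programme and is also made in visceral and definitive endoderm, was at 1.67, 0.954 and 2.02 CPM in 2-DG (passages 13, 15 and 16). In 1X glucose it was at 0.264, 0.631 and 1.64 CPM. The groups overlapped, because passage 16 was high in both, and the ratio within passages was 6.33 in passage 13 but 1.51 and 1.23 in the others. The log2 fold change was 0.86 (SE 0.70, 95% interval −0.68 to 2.41; adjusted p = 0.448, edgeR), and 1.07 (adjusted p = 0.039) once the passage was a block. The passage 13 ratio rested on 57 against 12 counts, and without 1X glucose of passage 13 or of passage 16 the log2 fold change was 0.43 or 1.80.

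Kit was at 42.9, 28.4 and 32.5 CPM in 2-DG and at 36.9, 17.8 and 21.6 CPM in 1X glucose, in the same order of passages. Passage 13 was the highest in each group, so the groups overlapped, but within a passage 2-DG was higher by 1.16, 1.59 and 1.50 times. The log2 fold change was 0.44 (SE 0.34, 95% interval −0.32 to 1.20; adjusted p = 0.429, edgeR). With the passage as a block it was 0.49 (SE 0.08) and passed, with an adjusted p of 0.000972.

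Nanos3 and Dnd1 encode RNA-binding proteins that keep migrating germ cells alive and act on mRNA through the CCR4-NOT deadenylase. Nanos3 (chr8:84173733-84176552, minus strand) had 7, 5 and 0 counts in 2-DG and 15, 11 and 10 in 1X glucose, or 0.205, 0.136 and 0 CPM against 0.329, 0.289 and 0.216. Its 2-DG libraries were all below those of 1X glucose, but the gap lay near the floor of 3 counts. The log2 fold change of −1.29 (SE 0.64, 95% interval −2.71 to 0.13) did not pass the threshold (adjusted p = 0.199, edgeR), and it was −0.70 without 2-DG of passage 16 and −1.99 without 2-DG of passage 13. Mir181c and Mir181d overlap Nanos3 on the same strand, so their reads could not be separated by strand. With Tfap2c, 2 of the 5 tested members had groups that did not overlap, beside 35.4% of all genes.

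Dnd1, on chromosome 18, was nearly level, with 1.96, 2.23 and 2.50 CPM in 2-DG and 2.26, 2.13 and 2.40 CPM in 1X glucose. Neither group stood above the other. Its log2 fold change of −0.02 had the narrowest interval of the members, −0.35 to 0.31 (SE 0.15; adjusted p = 0.951, edgeR), which is 0.786 to 1.24 as a fold. Dnd1 overlaps Wdr55 on the opposite strand, and a pseudogene of Dnd1 is annotated. The kit keeps the strand, but it is not stated in the sources used here whether the counting used it, so the Dnd1 counts are uncertain to that extent.

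Dppa3 (chr6:122626424-122630271, plus strand), or Stella, protects the maternal genome of the early embryo from loss of DNA methylation, marks early germ cells and is also a gene of naive ES cells. It had 27 counts in all 12 libraries together. These were 0, 7 and 6 counts in 1X glucose, 7, 0 and 0 in 2-DG, 4, 0 and 0 in no glucose and 0, 0 and 3 in 3X glucose, for passages 13, 15 and 16. No group had counts in all its libraries, and 7 of the 12 were at 0. Dppa3 has an annotated pseudogene copy, so even these counts could be shared.

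Dazl (chr17:50279393-50293620, minus strand), an RNA-binding protein of germ cells that licenses them for sexual differentiation, had 37 counts in all. It had 6, 0 and 3 counts in 1X glucose, 7, 4 and 0 in 2-DG, 3, 0 and 3 in no glucose and 8, 0 and 3 in 3X glucose. The 4 libraries at 0 were 3 of passage 15 and 1 of passage 16, and passage 13 had the most counts in each group, tied with passage 16 in no glucose. A difference between treatments in Dppa3 or Dazl was not detectable at this depth.

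**Figure D3:**
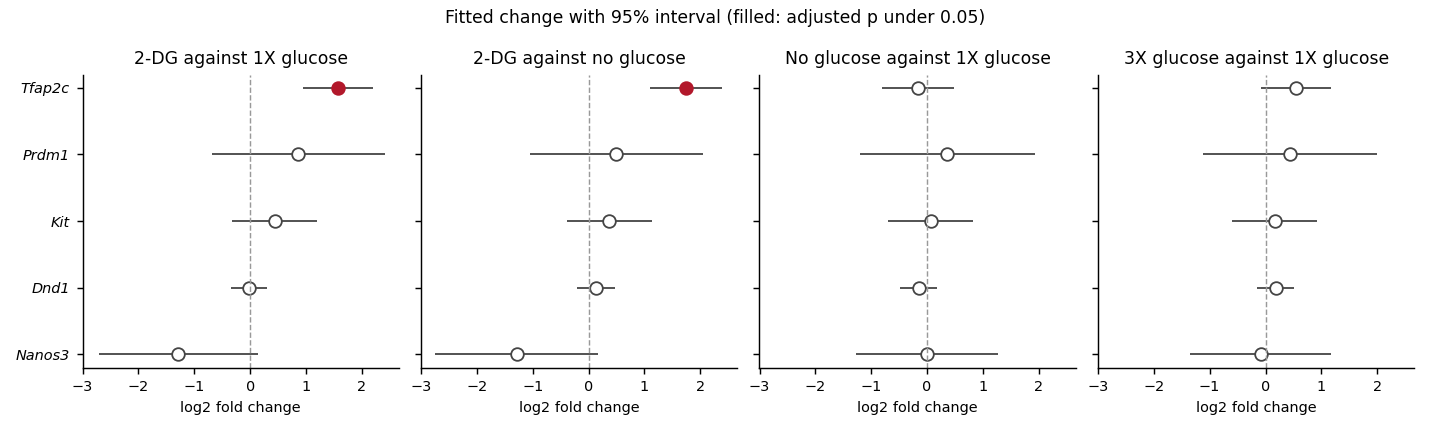
Fitted log2 fold change (x axis, point) with its 95% interval (line) for the 5 tested members in 4 comparisons, without a term for the passage. Filled points passed an adjusted p of 0.05: Tfap2c at 1.58 in 2-DG against 1X glucose and at 1.74 against no glucose, and no other.

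The comparisons of glucose levels asked whether removing or adding glucose did the same. Of the 5 tested members 0 passed in no glucose against 1X glucose, beside 0.0118% of all genes (2 genes). In 3X glucose against 1X glucose 0 members and 0 genes passed, which is 0.0% of those tested, with edgeR, while 178 genes had an unadjusted p under 0.05 and DESeq2 called 2. No member had an unadjusted p under 0.05 in either comparison, and DESeq2 called 0 members in both. These comparisons share the 1X glucose libraries with the first, so their values are set side by side.

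Tfap2c in no glucose was at 1.01, 0.986 and 1.36 CPM, and in 3X glucose at 1.65, 1.43 and 2.40 CPM, in passages 13, 15 and 16. Its log2 fold change against 1X glucose was −0.17 (95% interval −0.81 to 0.48) without glucose and 0.55 (SE 0.28, −0.08 to 1.17) in 3X glucose (adjusted p = 1 for both, edgeR). The order of the mean levels was no glucose (1.12), 1X glucose (1.25), 3X glucose (1.83) and 2-DG (3.75 CPM). Neighbours among the 3 glucose concentrations overlapped and did not pass the threshold. The highest library of 3X glucose was below the lowest of 2-DG, a pair that was not tested.

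Kit was at 38.9, 19.5 and 21.8 CPM without glucose and at 40.0, 22.0 and 23.8 CPM in 3X glucose, with log2 fold changes of 0.07 (95% interval −0.69 to 0.83) and 0.17 (−0.59 to 0.93) against 1X glucose. Prdm1 gave 0.505, 0.747 and 2.03 CPM without glucose and 0.493, 0.975 and 1.96 CPM in 3X glucose, and its log2 fold changes were 0.37 (−1.21 to 1.94) and 0.44 (−1.12 to 2.00). Within passages Kit was at 1.01 to 1.23 times its 1X glucose level and Prdm1 at 1.18 to 1.92 times, while the passages of a group differed by more. Dnd1 was at 1.99, 1.94 and 2.19 CPM without glucose and at 2.23, 2.50 and 2.96 CPM in 3X glucose, with log2 fold changes of −0.15 (−0.48 to 0.18) and 0.18 (−0.15 to 0.51). Nanos3 had 9, 7 and 11 counts and 8, 11 and 9 counts, and its intervals spanned −1.28 to 1.27 and −1.36 to 1.18.

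The level of Tfap2c was next compared between the extremes of glucose, a comparison added after the levels had been seen. All 3X glucose libraries were above all no glucose libraries, by 1.64, 1.45 and 1.77 times within passages. The log2 fold change was 0.71 (SE 0.29, 95% interval 0.07 to 1.35), but the adjusted p was 1 in edgeR's test, and 0.0992 once the passage was a block. Dnd1 also did not overlap, with a log2 fold change of 0.33 (−0.00 to 0.66; adjusted p = 1, edgeR). These were 2 of the 5 tested members, beside 9.01% of all genes without overlap, and 4.61% of all genes without overlap and higher, and no member was called, beside 0.0118% of all genes.

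2-DG, which blocks glycolysis, was also compared with no glucose, which withholds its substrate. Tfap2c was higher in 2-DG by 4.26, 2.74 and 3.12 times within passages, with a log2 fold change of 1.74 (SE 0.29, 95% interval 1.11 to 2.38; adjusted p = 0.00279, edgeR). It was again the only tested member called, beside 18.9% of all genes. Kit was higher by 1.10, 1.46 and 1.49 times, a log2 fold change of 0.37 (SE 0.34; adjusted p = 0.502) that became 0.42 (adjusted p = 0.00244) once the passage was a block, so that 2 of the 5 members were then called, beside 43.1% of all genes. Prdm1 was higher in passages 13 and 15 by 3.31 and 1.28 times but not in passage 16, where the ratio was 0.995 (adjusted p = 0.674, edgeR). The fold changes of Nanos3 and Dnd1 were −1.28 (95% interval −2.74 to 0.18) and 0.13 (−0.20 to 0.46) on the log2 scale.

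Across passages of the ES cells, 3 of the 5 tested members differed, beside 46.2% of all genes. The 4 libraries of a passage are its 4 treatments, not repeats of the passage. The p-values for passage thus speak for these cultures and not for passage number. Kit was at 36.9 to 42.9 CPM in the 4 libraries of passage 13. It was at 17.8 to 28.4 CPM in passage 15 and 21.6 to 32.5 CPM in passage 16. The passage 13 libraries did not overlap with the others, and Kit was lower on the log2 scale by −0.88 in passage 15 and −0.69 in passage 16 (adjusted p = 1.76e-05, edgeR's F test over both passage terms). In the same model 2-DG differed from 1X glucose by 0.49.

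Prdm1 went the other way. It lay at 0.264 to 1.67 CPM in passage 13, 0.631 to 0.975 CPM in passage 15 and 1.64 to 2.03 CPM in passage 16, a log2 difference of 1.53 between passages 16 and 13 (adjusted p = 0.00446, edgeR). Only the 2-DG library of passage 13, at 1.67 CPM, reached into the range of passage 16. Tfap2c was higher in passage 16 than in passage 15 by 0.64 on the log2 scale (adjusted p = 0.0116 for passage, edgeR). Dnd1 and Nanos3 did not pass (adjusted p = 0.109 and 0.666, edgeR), and DESeq2 called 2 of the 5 members.

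Markers of the endoderm, which also makes Prdm1, and of endothelium and blood, which also make Kit, differed between passages as well. Most of those that differed were higher in passages 15 and 16 than in 13. Of the 6 endoderm markers 5 differed between passages, beside 46.2% of all tested genes. On the log2 scale Sox17 was higher by 2.06 and 2.92 in passages 15 and 16 than in 13, and Foxa2 by 1.68 and 2.62. Cer1 (5.30 and 3.69) and Gata6 (1.31 and 1.90) were also higher, and of the 5 only Gata4 was lower, at −0.57 and −0.51. In passage 16 Sox17 reached 2.40 to 4.21 CPM against 0.406 to 0.527 CPM in passage 13. Of the 7 tested endothelial and blood markers 6 differed, beside the same share, and Lmo2 did not (adjusted p = 0.41, edgeR's F test). Kdr, the VEGF receptor, was higher by 2.12 and 2.62 in passages 15 and 16, opposite to Kit. Tal1 (1.26 and 2.34), Gata2 (0.62 and 1.09) and Cdh5 (3.35 and 4.01, near the floor in passage 13) were higher too, and Etv2 was at −0.18 and 0.66. Of the 6 only Pecam1, an adhesion molecule of endothelium, was lower in both, at −0.45 and −0.98, in the direction of Kit. The part of these cells in the levels of Prdm1 and Kit was not tested.

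Other genes used to follow primordial germ cells, most of which pluripotent cells also express, were read in the same fit. In 2-DG against 1X glucose 2 of 10 rose and 0 fell, with a median log2 fold change of 0.21 beside 0.00 for all tested genes. Of all tested genes 17.6% were called and 9.12% called higher, and with the passage as a block 41.3% and 21.1%. These shares also stand beside the counts of the lists that follow, many of which are near them. Ifitm3 (Fragilis, an interferon-induced membrane protein of early germ cells) rose by 0.49 (SE 0.13), from 15.5 ± 0.469 to 21.7 ± 1.48 CPM. Alpl, the alkaline phosphatase whose staining reveals germ cells, rose by 0.43 (SE 0.12), from 93.1 ± 11.7 to 126 ± 12.97 CPM (SD, n = 3; adjusted p = 0.0312 and 0.0362, edgeR). Without the filter on low counts both just missed the threshold (adjusted p = 0.0517 and 0.0546).

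Prdm14, the partner of Prdm1 and Tfap2c, had 12 to 20 counts in the 1X glucose libraries and 0 to 4 in 2-DG. Its log2 fold change of −3.19 (SE 1.13) missed the threshold (adjusted p = 0.077, edgeR) and passed once the passage was a block (adjusted p = 0.0177). Its 2-DG libraries were all below those of 1X glucose, whereas those of Tfap2c were all above and those of Prdm1 overlapped. With the block 5 of the 10 genes rose (Ifitm3, Alpl, Pou5f1, Nanog and Sox2) and 2 fell (Prdm14 and Lin28a).

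Signals that induce germ cells, their receptors, SMADs and BMP targets were measured for 13 genes, of which 1 rose and 2 fell in 2-DG against 1X glucose, with a median log2 fold change of −0.10. Bmp2 fell by 1.80 on the log2 scale (SE 0.43), from 4.09 ± 1.79 to 1.17 ± 0.658 CPM. T, which WNT induces in the posterior epiblast and which acts upstream of Prdm1 and Prdm14, fell by 1.57 (SE 0.36). Wnt3, the ligand of the posterior epiblast, rose by 0.94 (SE 0.26) to 1.90 ± 0.509 CPM, with adjusted p-values of 0.0176, 0.0136 and 0.0331 for the 3 genes in edgeR's test, of which that of Wnt3 was 0.0539 without the filter. Bmp4, the main inducing signal, was at 2.66 ± 0.354 CPM in 1X glucose and 2.33 ± 1.60 CPM in 2-DG (log2 fold change −0.19, SE 0.38), and Bmp8b was at 4 to 16 counts in these libraries. With the block 1 rose and 5 fell (Bmp2, T, Bmpr2, Smad1 and Id1).

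Kitl, the ligand of Kit, and Cxcr4, the receptor for the chemokine that guides germ cells, both fell, which are 2 of the 3 genes of ligands and migration. Kitl was at 72.6 ± 4.50 CPM in 1X glucose and 44.5 ± 7.12 CPM in 2-DG, a log2 fold change of −0.70 (SE 0.10; adjusted p = 0.00165, edgeR), while Kit itself was higher within passages. Cxcr4, which endoderm also makes, went from 49.3 ± 3.23 to 26.7 ± 5.30 CPM, a log2 fold change of −0.88 (SE 0.13; adjusted p = 0.00193, edgeR). Its ligand Cxcl12 was at 19.9 ± 13.5 and 19.0 ± 7.76 CPM, and its levels followed the passage.

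The CCR4-NOT subunits and Pumilio proteins with which Nanos3 and Dnd1 act were nearly level. Of 12 genes 1 fell, Cnot6l, a deadenylase subunit, by 0.38 on the log2 scale (SE 0.10; adjusted p = 0.0259, edgeR), and the median was −0.04. The scaffold Cnot1 stayed within −0.03 (SE 0.06), and Cnot2 was at −0.15 (SE 0.05; adjusted p = 0.0632, edgeR). With the block 1 rose and 3 fell.

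Genes of later germ cells and of meiosis, many of which are held silent by DNA methylation in somatic cells, had 8 of 15 members above the filter, and Slc25a31, Asz1 and Nanos2 were at or under the floor in every library. In 2-DG against 1X glucose 0 passed in edgeR's test, 2 had an unadjusted p under 0.05 (Sycp1 and Stra8), and the median was 0.21. Ddx4, the vasa helicase that germ cells make after Dazl comes on, was at 1.91 ± 0.206 CPM in 1X glucose and 2.66 ± 0.5001 CPM in 2-DG (log2 fold change 0.47, SE 0.25; adjusted p = 0.231, edgeR). Sycp3, of the synaptonemal complex, was at 1.09 ± 0.316 and 0.786 ± 0.133 CPM (−0.48, SE 0.34). With the block Ddx4, Sycp1 and Stra8 rose. Against no glucose the same 3 genes passed without the block, at 0.82, 0.28 and 2.12 on the log2 scale, but not without the filter on low counts (adjusted p = 0.0722, 0.053 and 0.0605, edgeR).

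**Figure D4:**
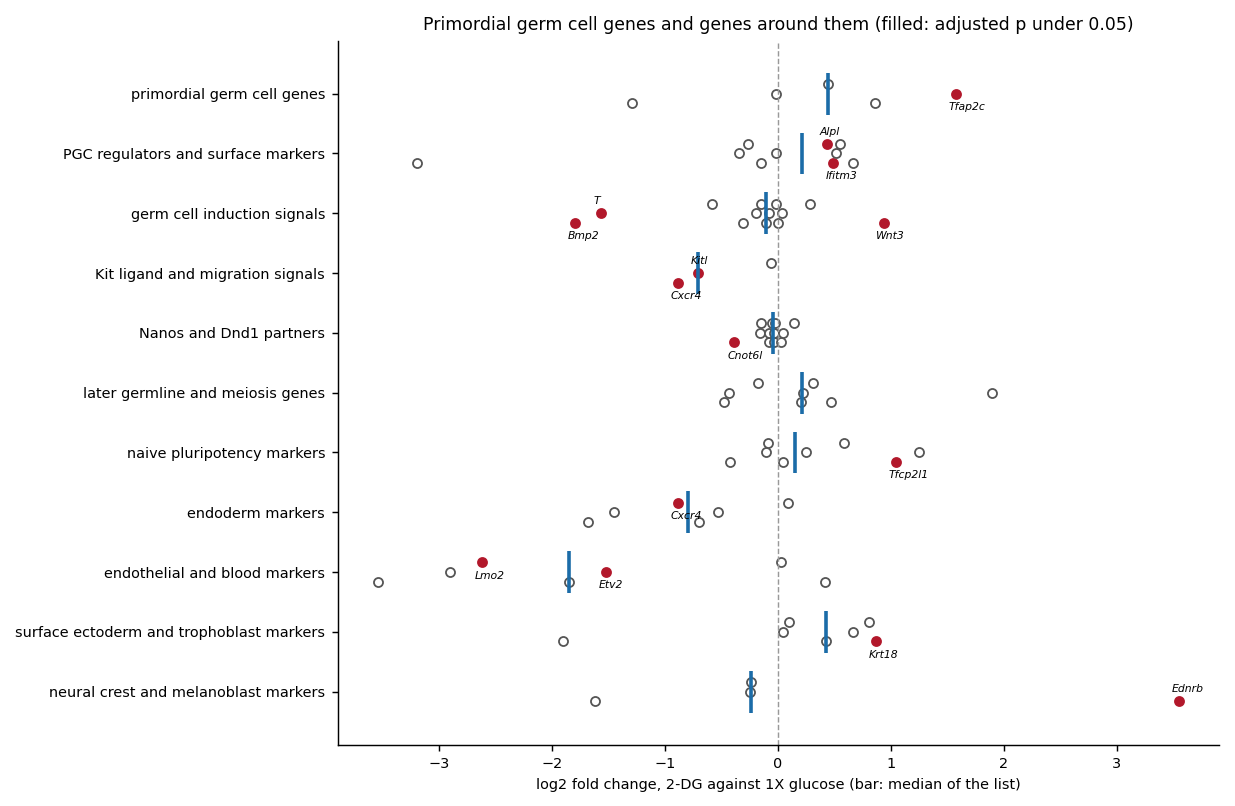
Log2 fold change in 2-DG against 1X glucose (x axis) of the tested genes of each list, with the 5 tested primordial germ cell genes at the top. Filled and named points passed an adjusted p of 0.05 and the bar is the median of the list, which was 0.44 for the primordial germ cell genes and −1.85 for the endothelial and blood markers.

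Cell types that share a member were checked by their markers. Beside the counts of these lists stand the same shares of all tested genes, 17.6% called, or 41.3% with the block. Of the 7 tested surface ectoderm and trophoblast markers, whose cells also make Tfap2c, 1 rose in 2-DG and 0 fell, with a median of 0.42, and with the block Grhl2, Krt8 and Krt18 rose. Krt18, a keratin of simple epithelia, rose by 0.87 (SE 0.22; adjusted p = 0.0244, edgeR), from 4.82 ± 1.13 to 8.79 ± 1.19 CPM. The summed level of the 9 markers was 41.5 to 62.5 CPM in 1X glucose, 59.7 to 69.0 in 2-DG, 32.4 to 57.8 in no glucose and 48.9 to 65.2 in 3X glucose. The largest part on average was Grhl3, at 31.7 ± 10.7 CPM in 1X glucose and 33.9 ± 0.719 CPM in 2-DG. Tfap2a, the related factor of surface ectoderm, was at 0.604 ± 0.196 and 0.623 ± 0.199 CPM in 1X glucose and 2-DG (log2 fold change 0.04, SE 0.38), and Trp63, which defines basal surface ectoderm, was at or under the floor in every library. The part of such cells in the rise of Tfap2c was not tested.

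Of the 4 tested markers of neural crest and melanoblasts, which make Tfap2c or Kit, 1 rose in 2-DG. This was Ednrb, the endothelin receptor, by 3.55 on the log2 scale (SE 0.69; adjusted p = 0.00645, edgeR), to between 57 and 310 counts. Sox10, which defines neural crest, had 0 to 4 counts in every library, and Foxd3 was at 0.523 ± 0.431 CPM in 1X glucose and 0.166 ± 0.0978 CPM in 2-DG (log2 fold change −1.62, SE 1.07), lower with the block (adjusted p = 0.0487, edgeR). The 5 markers summed to 17.2 to 51.5 CPM in 1X glucose, 26.1 to 39.7 in 2-DG, 19.1 to 65.0 in no glucose and 17.5 to 43.7 in 3X glucose. The largest part on average was Pax3, at 24.8 ± 18.6 CPM in 1X glucose and 20.8 ± 9.05 CPM in 2-DG.

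Endothelial and blood markers fell in 2-DG where they passed the test. Of 7 tested 2 fell and 0 rose, with a median of −1.85, and Lmo2, a cofactor of blood and endothelial progenitors, went from 52.0 ± 10.6 to 8.45 ± 4.61 CPM (log2 fold change −2.62, SE 0.36; adjusted p = 0.00114, edgeR). Etv2 fell by 1.52 (SE 0.40), and Kdr, at −2.90 (SE 0.95), passed only with the block (adjusted p = 0.0595 without it and 0.000131 with it, edgeR). With the block 5 of 7 fell (Kdr, Tal1, Cdh5, Etv2 and Lmo2), while Pecam1 and Gata2 were at 0.42 (SE 0.42) and 0.03 (SE 0.49). The summed level of the 8 markers was 50.7 to 66.5 CPM in 1X glucose, 6.27 to 15.7 in 2-DG, 53.7 to 83.1 in no glucose and 55.0 to 63.6 in 3X glucose, with Gata1 at or under the floor throughout, and most of the sum was Lmo2.

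Of the 6 endoderm markers read here, whose cells also make Prdm1, 0 rose and 1 fell in 2-DG, with a median of −0.79. The one that fell was Cxcr4, with the values given above. Sox17 and Foxa2, factors of definitive endoderm, were at −0.53 (SE 0.94) and −1.68 (SE 0.92) on the log2 scale, and passed, both lower, once the passage was a block (adjusted p = 0.0314 and 9.86e-05, edgeR). The 6 markers summed to 53.7 to 220 CPM in 1X glucose, 30.6 to 92.4 in 2-DG, 72.5 to 253 in no glucose and 51.8 to 169 in 3X glucose. Most of these sums was Cxcr4 and Cer1, the latter at 70.6 ± 81.8 CPM in 1X glucose and 25.8 ± 27.8 CPM in 2-DG.

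Naive ES cells also express Dppa3, and of their 8 tested markers 1 rose in 2-DG and 0 fell, with a median of 0.15. Tfcp2l1, a factor of the naive state, rose by 1.05 (SE 0.27; adjusted p = 0.0244, edgeR), from 2.64 ± 0.700 to 5.47 ± 0.897 CPM. Zfp42 (Rex1) was at 1.50 ± 0.168 and 1.55 ± 0.296 CPM (log2 fold change 0.04, SE 0.25). With the block Klf2 and Esrrb rose as well (adjusted p = 0.0105 and 0.0457, edgeR). The 9 markers summed to 42.6 to 76.6 CPM in 1X glucose and 45.9 to 62.1 in 2-DG. They summed to 32.9 to 66.3 in no glucose and 46.5 to 77.3 in 3X glucose, with Tcl1 at or under the floor. The largest part on average was Fgf4, at 45.3 ± 19.05 CPM in 1X glucose and 33.7 ± 9.498 CPM in 2-DG (log2 fold change −0.43, SE 0.39). The sums thus mainly give the level of Fgf4. In no glucose and in 3X glucose against 1X glucose, no gene of the 10 lists passed.

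The genes whose pattern over the 12 libraries was most like that of a member were named by Pearson's r of log2 levels. For Tfap2c these were Lgi2 (r = 0.976) and Rec8, the meiotic cohesin subunit (r = 0.970), and r was 0.981 and 0.969 after centring within passages. Rec8 rose in 2-DG from 8.78 ± 1.66 to 18.3 ± 2.49 CPM, by 1.06 on the log2 scale (SE 0.22; adjusted p = 0.00972, edgeR), and Lgi2 rose by 0.62 (SE 0.15; adjusted p = 0.0157). For Kit they were Dock9, a guanine nucleotide exchange factor (0.990), and the nucleoside transporter Slc29a1 (0.988), with 0.959 and 0.949 after centring. For Prdm1 they were Cabp1 and Epop, at 0.928 and 0.921, for Dnd1 Calhm2 and Rdh12, at 0.910 and 0.899, and for Nanos3 1500015A07Rik and Adam5, at 0.914 and 0.902. The 12 libraries share passages and treatments and the genes were picked as the highest of all tested, so these values are descriptions.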

How the data were processed

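PolyA RNA of 12 libraries, 3 in each of 4 groups, was analysed. For each library the authors deposited a table of estimated counts, covering 120312 RefSeq transcripts. Per the methods and the submitters' processing notes, reads were trimmed with Trim Galore, aligned to mm10 with HISAT2, freed of duplicates with Picard (SAMtools is also named) and counted with StringTie. Versions, annotation, parameters and the strand setting are not given in the sources used here. StringTie apportions reads between transcripts and near-identical copies. The estimated counts are whole numbers, so rounding changed nothing. The authors also deposited 3 tables of DESeq2 fold changes and p-values, which were not used.

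Transcripts were named by the RefSeq table of GRCm38.p6 (all 120312), which also gave gene positions, and counts were added up per gene symbol. Lengths and exons came from GENCODE M21 and GRCm38. Of 38911 genes, 26382 had a count and 16966 passed filterByExpr. Depth was 31902471 to 45956080 counts. One model of all 4 groups was fitted by edgeR 4.0.16 in R 4.3.3 (TMM, quasi-likelihood test, two-sided, no passage term), with p-values adjusted by Benjamini-Hochberg over all tested genes and a threshold of 0.05. Intervals are 95% intervals of the fit and assume independent libraries, although libraries of the same passage were correlated, as given below. The floor of 3 counts is a fixed setting. An exact permutation test of 3 against 3 libraries cannot go below p = 0.1 and was not used.

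Replicate numbers are ES cell passages in the labels. Deviations from group means correlated at 0.182 to 0.763 in the 18 pairs of libraries of the same passage and at no more than 0.317 in other pairs of different groups, so the passage pairs the libraries and a fit with it as a block was run. At most 9.67% of values were identical between 2 libraries.

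The members and the 10 lists of 89 other genes were chosen with earlier results of these data known, and 1 further gene of the endoderm list is not reported here. Named are the members, the first 2 genes of each list and up to 4 called ones with the largest change, genes named with a block call, and the 2 genes most like each tested member by Pearson's r of log2(CPM + 0.5). Sox2, Lin28a, Id1, Bmpr2, Smad1, Sycp1, Stra8, Grhl2, Grhl3, Krt8, Slc25a31, Asz1, Nanos2, Gata1, Gata2, Gata4, Gata6, Cer1, Pax3, Fgf4, Pecam1, Tal1, Cdh5, Klf2, Esrrb and Tcl1 were named after their values were seen. Alternatives were no filter, median-of-ratios factors, DESeq2 1.42.0, the block, the 2 groups alone, the most abundant transcript alone and leaving out each library. The fit was tested on simulated data, with changes placed only in genes with more counts than any member but Kit, so the other members were not covered. The simulated treatment effect was set in data without a passage effect.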

Additional observations from a re-analysis of the deposited data

How the results depend on the processing

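The passage as a replicate block changed these calls and counts. With it 7001 genes in place of 2990 were called in 2-DG against 1X glucose, all 2990 of them included, 7305 in place of 3207 in 2-DG against no glucose, and 136 in place of 2 in 3X glucose against no glucose. Members called went from 1 to 3 and from 1 to 2 in the comparisons of 2-DG. The block changed no other member's call, and it turned Nanos3 in no glucose from −0.0044 to 0.014.

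With the most abundant transcript alone the genes called were 653, 2, 775 and 1 in 2-DG against 1X, 3X against 1X, 2-DG against no glucose and 3X against no glucose, and 1879 in place of 7840 for passage, with 0 members in all of them. Under it the log2 fold changes in no glucose were 0.33 for Nanos3 and −0.56 for Kit, in 3X glucose −0.63 for Tfap2c and −0.88 for Kit, and in 3X against no glucose −0.16 and −0.32. The fit of only the 2 groups gave 1896, 0 and 0 genes in 2-DG, no glucose against 1X, and 3X against no glucose (with Nanos3 filtered out of the fits with 2-DG and of 3X against no glucose), and DESeq2 gave 12, 2 and 31 in no glucose, 3X against 1X and 3X against no glucose. The cause was not tested.

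Leaving out 1 library gave 1734 to 2352 genes in 2-DG against 1X (1734 without 1X passage 15, 1738 and 1960 without 2-DG passages 15 and 13), 1 to 3 in no glucose (1 without 1X passage 16 or no glucose passage 13), 2051 to 2619 in 2-DG against no glucose (2051 without no glucose passage 15, 2072 and 2136 without 2-DG passages 15 and 13) and 1 to 3 in 3X against no glucose (1 without 3X passage 16). Directions turned in uncalled members: Dnd1 in 2-DG (−0.11 to 0.063), Prdm1 (−0.44 to 1.30), Tfap2c (−0.33 to 0.11), Nanos3 (−0.18 to 0.16) and Kit (−0.31 to 0.44) in no glucose, Prdm1 (−0.22 to 1.38), Nanos3 (−0.30 to 0.055) and Kit (−0.16 to 0.53) in 3X glucose, and Prdm1 (−0.58 to 0.88), Nanos3 (−0.29 to 0.085) and Kit (−0.22 to 0.47) in 3X against no glucose, all of whose settings were chosen after seeing the data. Tfap2c in 2-DG ran from 1.43 to 1.95 over 12 alternatives, with adjusted p from 1.98e-05 to 0.657. Depth limits Dppa3, Dazl, Nanos3 and Prdm14, with at most 20 counts in a library.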

Other observations

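In 2-DG against no glucose, of the 10 other genes used to follow primordial germ cells 5 were above 0 and 5 below, with a median of 0.20. Beside 18.9% of all genes, 4 were called, all higher: Ifitm3 (0.81, SE 0.14), Alpl (0.46, SE 0.12), Pou5f1 (0.84, SE 0.24) and Nanog (1.61, SE 0.30 on the log2 scale), with adjusted p-values of 0.00286, 0.0273, 0.0306 and 0.00484 in edgeR's test, and once the passage was a block Sox2 was also called higher and Lin28a lower. Nanog, the pluripotency factor, was at 4.59 ± 0.577 CPM in 2-DG, 2.90 ± 0.421 in 1X glucose, 3.52 ± 1.18 in 3X glucose and 1.51 ± 0.559 in no glucose (SD, n = 3). Stra8, which opens meiosis in response to retinoic acid, was at 3.35 ± 0.207 CPM in 2-DG and between 0.763 and 0.980 CPM on average in the other 3 groups, with 4 to 71 counts in their 9 libraries.

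Beside 46.2% of all genes that differed between passages, the other lists gave the following counts. Of the 10 germ cell regulators and surface markers 8 differed between passages, of the 13 induction signals 10, of the 8 tested genes of later germ cells 2, and of the 3 genes of ligands and migration 1. Of the 12 CCR4-NOT and Pumilio genes 8 differed, and of the 8 tested naive markers 5. The lists whose cells also make Tfap2c gave 6 of the 7 tested surface ectoderm and trophoblast markers and 4 of the 4 tested neural crest and melanoblast markers. Cxcl12 was at 5.01 to 10.2 CPM in passage 13 and at 24.4 to 49.4 and 21.1 to 26.0 CPM in passages 15 and 16.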
